A study of Mus musculus with 43 samples.

Results

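The visinin-like neuronal calcium sensors described here are the genes Vsnl1, Hpca, Hpcal1, Hpcal4, Ncald and Ncs1, 6 of the 56980 genes counted. They were chosen by name, as relatives of Vsnl1, and Vsnl1 was selected on its own values because it moved in opposite directions in Cux1 KO neurons at E19 and P4. Those values of Vsnl1 are therefore a description, and Vsnl1 is given no test in any comparison that involves the Cux1 KO. The WT libraries of E19 and P4 entered that choice too, so its differences in comparisons that use them are given as a description as well. All 6 genes were found in the counts. Each passed the filter on low counts in every comparison, so none of the 5 genes other than Vsnl1 is missing from the tests below.

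Neuronal calcium sensors are small EF-hand proteins that bind calcium and change shape when its concentration in the cytoplasm rises. Most carry a myristoyl group at the N-terminus, and in visinin-like proteins calcium can expose this lipid so that the protein moves to membranes. In cortex and hippocampus they are known for tuning membrane traffic, ion channels, receptor signaling and cyclic nucleotide synthesis in response to activity.

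RNA was sequenced from GFP-labelled L2/3 neurons, sorted from mouse somatosensory cortex after in utero electroporation, with 1 library per sample. The 43 libraries formed 13 groups. These were WT, Cux1 KO and Cux2 KO females (L2/3 F) and males (L2/3 M) at E19 (n = 4 each), females and males of WT and of the Cux2 KO at P4 (n = 3 each), Cux1 KO males at P4 (n = 2), and WT females (n = 2) and males (n = 3) at P7. All mice were on the C57BL6J RccHsd background. The Cux1 KO at E19 carried the germline Cux1 ∆C allele on both copies, and the Cux2 KO carried the germline Cux2- allele on both copies. The Cux1 KO at P4 came from Cux1 f/∆23 animals, with 1 floxed copy and 1 germline copy lacking exon 23. CRE, delivered by pCAG-iCre together with pCALNL-GFP, recombined the floxed copy in electroporated cells, and the other cells of these animals were heterozygous, unlike those of WT. The other groups received pCAG-GFP alone, so at P4 the CRE and label plasmids cannot be told apart from the Cux1 genotype, and the Cux1 KO of the stages differs in allele as well as in age. The E19 libraries were sequenced in a different round from those of P4 and P7, and this difference cannot be told apart from stage. At E19 the libraries held between 13321095 and 20715732 counts (median 16741478.5), at P4 between 19499125 and 60559585 (median 36485646.5) and at P7 between 15312029 and 27633827 (median 26325070).

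Expression is given as CPM, the counts of a gene scaled to a common library total with TMM factors over all libraries, and fold changes come from edgeR's quasi-likelihood test fitted on all genes, with Benjamini-Hochberg adjusted p-values. A gene was called differentially expressed (DEG) where its adjusted p was below 0.05 and its log2 fold change exceeded 0.5 in size at E19, or 1 in the other comparisons. Differences between effects (interaction terms) had no fold change threshold. Where DESeq2, a second tool, is given for groups of the same stage, its fold changes are shrunken by a prior. Its calls apply the threshold to these shrunken values, so its fold changes and counts are not directly comparable with those of edgeR. In these bulk libraries, fewer cells of a type and less RNA per cell cannot be told apart.

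The targeted genes were checked first. Cux1 was counted at 289, 298, 312 and 349.7 CPM in Cux1 KO females at E19 and at 425, 506, 346 and 414 CPM in WT females. In Cux1 KO males at E19 it was at 378, 310.1, 339 and 373 CPM, against 468, 361, 464 and 312 CPM in WT males. At P4 the 2 Cux1 KO libraries held 83.3 and 168 CPM, and the WT male libraries 88.1, 157 and 99.6 CPM. In females at E19, 3 of the 4 KO libraries lay below every WT library, and in males at E19 and at P4 the groups overlapped. Cux2 was at 349.6 ± 56.2 CPM in Cux2 KO females and 352 ± 62.5 CPM in Cux2 KO males at E19, against 457 ± 63.0 and 412 ± 77.7 CPM in WT (SD, n = 4 each). At P4 it was not lower, at 32.9, 29.6 and 51.2 CPM in Cux2 KO females against 36.9, 34.5 and 28.1 CPM in WT females, and at 36.1, 60.5 and 35.6 CPM in Cux2 KO males, and the groups overlapped in both sexes at P4. Counts per gene cannot show the loss of an exon, and RNA from a mutated allele adds to them. Cux2 in Cux1 KO males at P4 was at 80.4 and 96.6 CPM, against 31.7, 31.4 and 46.5 CPM in WT males, with both KO libraries above WT.

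The labelled cell type was checked against 12 genes of L2/3 excitatory neurons, all of which were detected. Their summed level lay between 4024 and 5905 CPM in the WT libraries of E19 females and between 818 and 1059 CPM in those of P4 males, with Pou3f3 the most abundant gene in both. Markers of other cells were present too. Astrocyte and radial glia genes summed to 4286 ± 817 CPM in WT males at P4 (SD, n = 3), with Slc1a3 the most abundant, and oligodendrocyte lineage genes to 2426 ± 460 CPM.

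**Figure D1:**
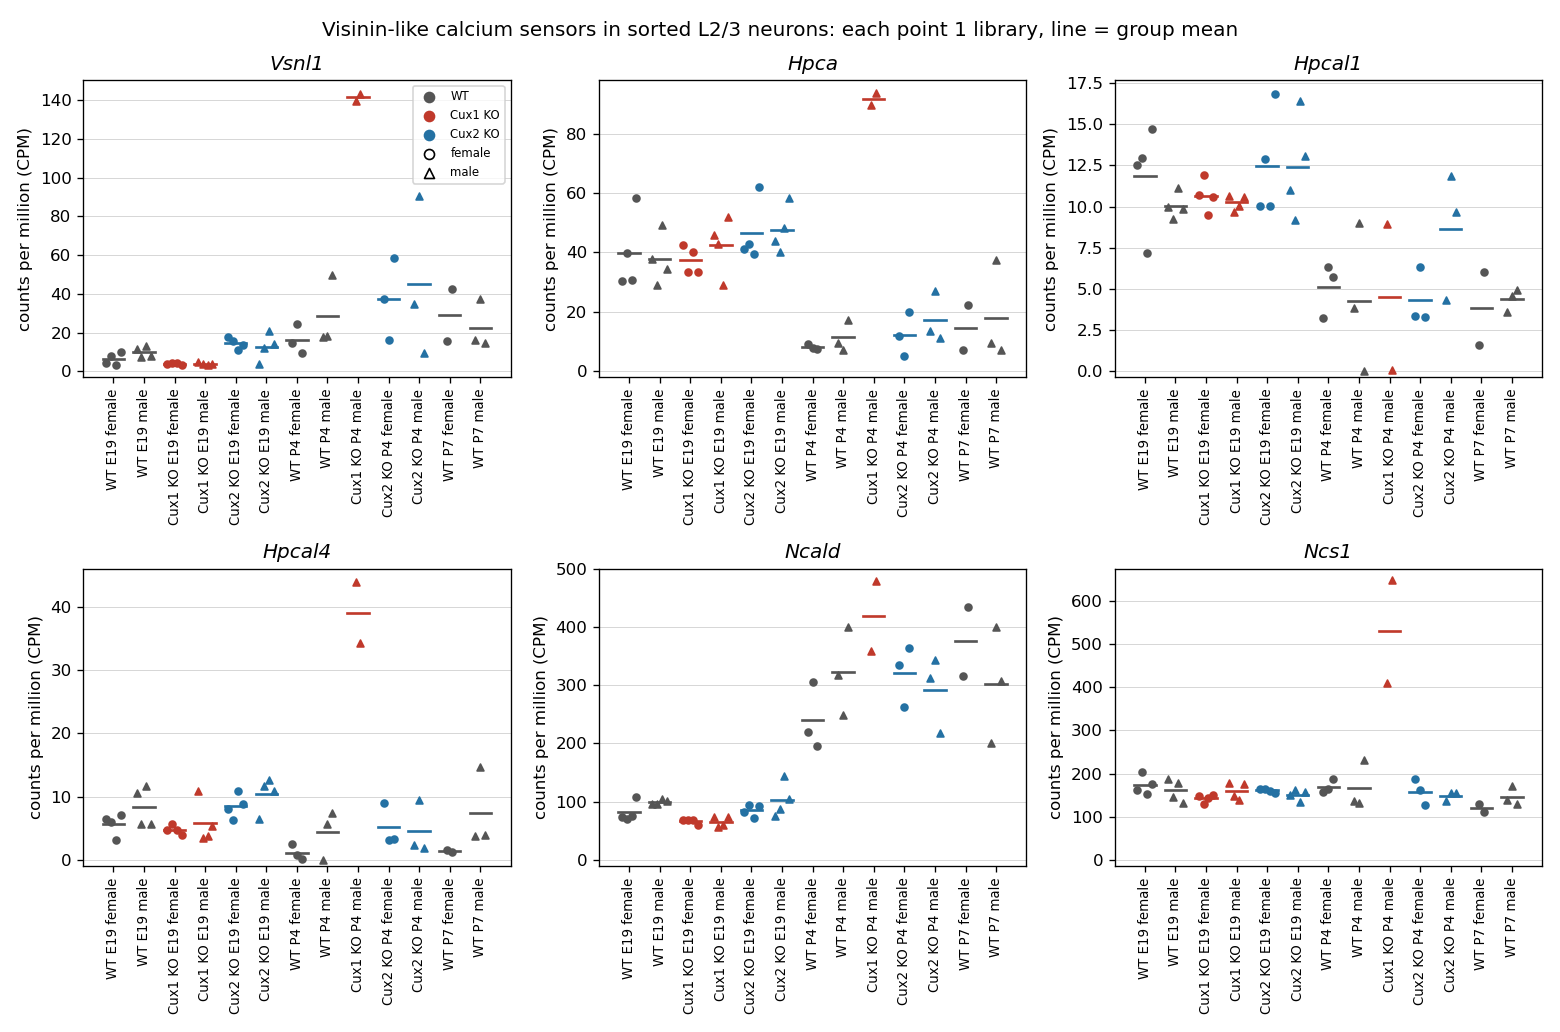
Level of each of the 6 calcium sensor genes in every library, in CPM on a linear axis that differs between panels, by genotype, stage and sex. Each point is 1 library and each line a group mean; Vsnl1, Hpca, Hpcal4 and Ncs1 are highest in the 2 Cux1 KO male libraries of P4, and Ncald is higher at P4 and P7 than at E19.

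The genes differed in abundance in WT neurons. Compared per exon length (FPKM) at E19, Ncs1 was the most abundant at 23.1 ± 3.22 (SD, n = 8). The length was that of all annotated exons together, and the order of Hpca and Ncald turned with it. Hpca was at 7.96 ± 2.13 and Ncald at 5.22 ± 0.872 FPKM by this length, and at 8.63 ± 2.31 and 14.3 ± 2.38 FPKM by that of the canonical transcript. By all exons, Hpcal1 was at 3.35 ± 0.730, Vsnl1 at 2.41 ± 1.00 and Hpcal4 at 1.20 ± 0.469 FPKM. At P4 Ncald was at 16.3 ± 4.34 FPKM (n = 6) and Ncs1 at 23.1 ± 5.04 FPKM by all exons, and at 44.5 ± 11.9 and 35.9 ± 7.82 FPKM by the transcript. Depth allowed each gene to be read in nearly every library. Counts of 3 or fewer, the limit that a count of 0 allows, occurred in 1 P4 library for Hpcal1 and in 2 P4 libraries for Hpcal4. Such limits cover counting error only, because no molecular identifiers were used.

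WT neurons were compared between E19 and P4 to ask how the family changes as L2/3 neurons mature around birth. Of the 5 genes other than Vsnl1, Ncald rose, Hpca fell and the other 3 did not pass the test. These 2 calls stand beside 46.3% of the 18585 genes tested. Ncald encodes neurocalcin delta, a sensor known to regulate guanylate cyclases. In WT libraries it ran from 70.6 to 108.2 CPM at E19 (median 95.3, n = 8) and from 196 to 399.5 CPM at P4 (median 277, n = 6), with a log2 fold change of 1.68 (SE 0.135, adjusted p = 4.38e-08 by edgeR's quasi-likelihood test). All P4 libraries lay above all E19 libraries. The share of all genes so placed was not counted, and 22.6% of all genes were called higher at P4. Hpca encodes hippocalcin, which is abundant in pyramidal neurons and takes part in calcium-driven receptor internalization. It ran from 29.0 to 58.4 CPM at E19 (median 36.2, n = 8) and from 7.29 to 17.4 CPM at P4 (median 8.43, n = 6), and fell by 1.95 on the log2 scale (SE 0.234, adjusted p = 3.16e-06). Here too the stages did not overlap, with every P4 library below every E19 library. This share was not counted over all genes either, and 23.7% of them were called lower at P4. Vsnl1, whose product is known for moving nicotinic receptors to the surface and for raising cyclic nucleotide synthesis, ran from 2.99 to 13.2 CPM at E19 (median 8.03) and from 9.24 to 49.5 CPM at P4 (median 18.0), with a log2 fold change of 1.46. This is given as a description, because WT libraries of both stages also enter the Cux1 KO contrasts from which Vsnl1 was chosen. Its stages overlapped, and the highest P4 value came from male replicate 3, without which the log2 fold change was 1.15.

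The remaining genes showed no called change between E19 and P4. Hpcal1, a close relative of hippocalcin, had a log2 fold change of -1.18 (SE 0.671, adjusted p = 0.131), and Hpcal4, a visinin-like protein that modulates voltage-gated calcium channels, one of -1.57 (SE 0.864, adjusted p = 0.119). In females alone both passed the threshold, at -1.18 (adjusted p = 0.0139) and -2.36 (adjusted p = 0.0460). Ncs1, which binds a phosphatidylinositol kinase and the D2 dopamine receptor, had a mean of 167 ± 23.4 CPM at E19 (n = 8) and 168 ± 36.5 CPM at P4 (n = 6), and a log2 fold change of 0.05 (SE 0.131, adjusted p = 0.745). In all, 2 of the 5 genes other than Vsnl1 were called, beside 46.3% of the 18585 genes tested. Marker sums moved between these stages as well. L2/3 neuron genes summed to 4796 ± 578 CPM in WT males at E19 and 912 ± 128 CPM at P4, and astrocyte and radial glia genes to 2603 ± 486 and 4286 ± 817 CPM. The L2/3 list was led by Pou3f3 and the glial list by Slc1a3 at P4. In WT males, other lists were lower at P4 than at E19, namely deep-layer neuron genes, led by Sox5 at P4 (618 ± 68.7 and 342 ± 37.2 CPM), intermediate progenitor genes, led by Btg2 (424 ± 65.1 and 205 ± 36.2 CPM), and mitochondrially encoded genes, led by mt-Nd4 (7612 ± 1014 and 1914 ± 887 CPM). Higher at P4 were oligodendrocyte lineage genes, led by Pdgfra (687 ± 65.4 and 2426 ± 460 CPM), endothelial and mural genes, led by Rgs5 (58.6 ± 28.9 and 425 ± 97.3 CPM), cell cycle genes, led by Top2a (868 ± 134 and 1435 ± 115 CPM), erythroid genes, led by Hba-a2 (43.3 ± 23.8 and 323 ± 148 CPM), and dissociation response genes, led by Fos (346 ± 92.3 and 1117 ± 366 CPM). The leading gene named for each list is the one in WT males at P4, and some lists were led by another gene at E19. The sums of these 10 lists did not overlap between the stages in males or in females and moved in the same direction in both. Of their genes, Neurog1 was at 0 in WT females at P4. The part of these lists in the results was not tested.

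For P4 and P7, WT libraries came from the same sequencing round. Of the 5 genes other than Vsnl1, 0 were called between these stages by edgeR, beside 2.29% of 20936 genes. At an unadjusted p under 0.05 the count was 0 of 5, beside 22.3% of all genes. DESeq2 called 0, beside 1187 of 22030 genes. Hpca ran from 7.06 to 37.6 CPM at P7 (n = 5), with a log2 fold change of 0.74 (SE 0.463, adjusted p = 0.404), and Ncs1 had one of -0.33 (SE 0.165, adjusted p = 0.274). The Hpca difference took the opposite sign, -0.64, with replicate number as a block. Vsnl1 ranged from 14.5 to 42.3 CPM at P7 and Ncald from 201 to 435 CPM, both overlapping P4.

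Females and males were compared in WT neurons at each stage. By edgeR 0 of the 5 genes other than Vsnl1 were called at E19, beside 0.0461% of 17344 genes. At P4 the count was 0, beside 0% of 19213 genes, and at P7 it was 0, beside 0.0247% of 20271 genes, and DESeq2 called 0 at each stage, beside 9, 85 and 12 of all genes. An unadjusted p under 0.05 was found for 1 gene at E19, 0 at P4 and 1 at P7, beside 3.67%, 7.28% and 4.36% of all genes. Vsnl1 had mean levels of 6.44 ± 3.29 CPM in females and 10.1 ± 2.81 CPM in males at E19 (SD, n = 4 each), a log2 difference of -0.68, and of 16.0 ± 7.66 and 28.5 ± 18.2 CPM at P4 (n = 3 each), a difference of -0.83. Ncald at E19 was at 81.6 ± 17.8 CPM in females and 98.7 ± 4.20 CPM in males, a difference of -0.29 (SE 0.126, adjusted p = 0.992). At P7 Hpcal4 was at 1.52 and 1.21 CPM in females and at 3.80, 14.7 and 3.87 CPM in males, with a difference of -2.45 (SE 0.785, adjusted p = 1.00). Its female libraries lay below all male ones, at 23 and 32 counts, and 2 of the 5 genes other than Vsnl1 were so placed, beside 9.98% of all genes. The other was Ncs1, at 128.5 and 111 CPM in females and at 137, 171 and 129.5 CPM in males.

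The Cux1 KO was compared with WT at E19, within each sex, to ask how loss of the C-terminal part of the protein affects L2/3 neurons before birth. Vsnl1, as selected, was low in the KO. It was counted at 3.60, 4.42, 4.51 and 3.41 CPM in Cux1 KO females and at 4.50, 8.05, 2.99 and 10.2 CPM in WT females, a log2 fold change of -0.68. In males it was at 4.65, 3.56, 3.17 and 3.71 CPM in the KO and at 11.7, 7.45, 13.2 and 8.02 CPM in WT, a log2 fold change of -1.45. The male groups were apart and the female groups overlapped, and the 8 KO libraries of the sexes covered the same narrow range. These values chose the gene and were not tested.

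Ncald was the member of the other 5 that differed from WT in males at E19. It was at 73.0, 56.5, 59.4 and 72.7 CPM in Cux1 KO males and at 95.2, 95.4, 104 and 100.5 CPM in WT males, so that every KO library was below every WT library, as for 1.74% of genes. The log2 fold change was -0.63 (SE 0.0949, adjusted p = 0.0379 by edgeR's quasi-likelihood test, n = 4 each), and DESeq2 gave -0.55 (adjusted p = 3.99e-06), where it called 73 of 15855 genes. The call held without Cux1 KO replicate 1 (adjusted p = 0.0316) and was lost without any other library, with adjusted p-values up to 0.139, and in a fit with all E19 groups it was 0.242. In females Ncald was at 67.9, 67.6, 68.4 and 59.9 CPM in the KO and at 73.1, 70.6, 74.8 and 108.2 CPM in WT. The female groups did not overlap either, with a log2 fold change of -0.30 (SE 0.127, adjusted p = 0.706), and the difference between the sexes was -0.33 (SE 0.165, adjusted p = 0.962). Ncs1 in females was also lower in all KO libraries (147, 130.2, 143 and 151 CPM) than in all WT libraries (163, 204, 152 and 177 CPM), as for 1.32% of genes, with a log2 fold change of -0.28 (SE 0.0918, adjusted p = 0.619).

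Counted over the 5 genes other than Vsnl1, 0 were called in Cux1 KO females at E19 by edgeR, beside 0.0576% of 17376 genes, and 1 in Cux1 KO males, beside 0.0979% of 17362. In females 2 of the 5 (Ncald and Ncs1) had an unadjusted p under 0.05, beside 6.87% of all genes, and DESeq2 called 0, beside 29 of 18417 genes. In males 1 of the 5, Ncald, had an unadjusted p under 0.05, beside 10.4% of all genes. Hpca, Hpcal1 and Hpcal4 were not called in either sex. For the effect of Cux1 loss by sex, 0 of 5 were called by edgeR (0% of 18318 genes), 0 had an unadjusted p under 0.05 (3.81% of all genes), and DESeq2 called 0 members and 0 of all genes. Marker sums differed between these groups too. Intermediate progenitor genes, led by Eomes, summed to 606, 612, 613 and 647 CPM in Cux1 KO females against 502, 407, 428 and 484 CPM in WT females, with 5 of 5 tested genes at a positive fold change and 0 called. In males these sums were 442, 617, 573 and 605 CPM in the KO and 375, 399, 401 and 519.5 CPM in WT. Microglia genes, led by C1qb, summed to 36.9, 53.5, 42.0 and 48.3 CPM in Cux1 KO males and 73.1, 62.6, 80.8 and 70.1 CPM in WT males, with 7 of 7 tested genes at a negative fold change. Oligodendrocyte lineage genes, led by Olig1, summed to 502, 423, 386 and 594 CPM in Cux1 KO males and 687, 595, 733 and 734 CPM in WT males. Interneuron genes, led by Dlx1, summed to 378, 354, 761 and 319.7 CPM in Cux1 KO males and 494, 847, 424 and 455 CPM in WT males, with 12 of 13 at a negative fold change and 1 called as lower, Npy, named after its values were seen. Their sums overlapped between the groups. No marker of these lists was at 0, and their part in the results for Ncald and Vsnl1 was not tested.

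The Cux2 KO at E19 was compared with the same WT libraries. Vsnl1 was at 17.6, 15.9, 11.1 and 13.6 CPM in Cux2 KO females, all above the WT female libraries given for the Cux1 KO comparison. Its log2 fold change was 1.19, a description, because the Vsnl1 values of these WT libraries had entered its choice. In males it was at 3.73, 11.8, 20.9 and 13.9 CPM, with a log2 fold change of 0.29. The male libraries spread over WT and reached both below and above it, and without replicate 3 the difference was -0.05. Hpcal4 was at 8.03, 6.34, 10.9 and 8.75 CPM in Cux2 KO females and at 6.42, 5.99, 3.18 and 7.11 CPM in WT females, which overlapped, with a log2 fold change of 0.60 (SE 0.261, adjusted p = 0.977). Of the 5 genes other than Vsnl1, 0 were called in females by edgeR (0.0287% of 17436 genes) and 0 in males (0.121% of 17332). DESeq2 called 0 in both, beside 22 of 20782 and 66 of 18160 genes. Of the 5 other than Vsnl1, 1 and 0 had an unadjusted p under 0.05, beside 4.62% and 7.94% of all genes. Markers of other cells were higher in some of the Cux2 KO female libraries. Endothelial and mural genes, led by Pdgfrb, summed to 123, 85.7, 69.6 and 40.5 CPM in the KO and 51.8, 50.6, 51.9 and 59.5 CPM in WT females, with 7 of 8 at a positive fold change (median 1.24). Interneuron genes, led by Dlx1, summed to 678, 1154, 426 and 519 CPM against 309, 427, 1121 and 454 CPM, with 12 of 13 positive (median 0.27). Deep-layer neuron genes, led by Tbr1, summed to 598, 670.5, 605 and 743 CPM against 628, 665, 574 and 671 CPM, with 7 of 8 positive (median 0.39). These sums overlapped, 0 genes of the 3 lists were called by edgeR, and their part in the results for Vsnl1 was not tested. For the difference of the Cux2 KO effect between the sexes at E19, edgeR called 0 of the 5 other members (0% of 18356 genes). Of these, 0 had an unadjusted p under 0.05 (3.78% of all genes), and DESeq2 called 0 of them and 0 of all genes.

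In Cux1 KO males at P4, 3 of the 5 sensor genes other than Vsnl1 (Hpca, Ncs1 and Hpcal4) were higher in both libraries than in every WT male library, beside 18.6% of 19601 genes. Vsnl1 was at 139.8 and 143 CPM in the 2 Cux1 KO libraries and at 17.7, 18.3 and 49.5 CPM in WT males, a log2 fold change of 2.30 that chose the gene and was not tested. Hpca was at 89.7 and 93.6 CPM in the KO and at 9.66, 7.29 and 17.4 CPM in WT, a log2 fold change of 2.99 (SE 0.426, adjusted p = 0.0764). Both KO libraries lay above every library of any other group of the study for this gene. The share of all genes so placed against all groups was not counted. Ncs1 was at 411 and 649 CPM in the KO and at 137, 131 and 230.4 CPM in WT, a log2 fold change of 1.66 (SE 0.345, adjusted p = 0.0913). Hpcal4 was at 43.9 and 34.3 CPM in the KO and at 0, 5.67 and 7.45 CPM in WT, with a fitted log2 fold change of 3.15 (SE 1.91, adjusted p = 0.406). For both of these genes, too, each KO library was above each WT library.

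The other genes of the family overlapped between the groups. Ncald was at 359 and 479 CPM in the KO and at 318, 248 and 399.5 CPM in WT, with a log2 fold change of 0.37 (SE 0.259, adjusted p = 0.482). Hpcal1 was at 8.94 and 0.0927 CPM in the KO, where the second library held 4 counts, and at 3.87, 9.02 and 0 CPM in WT, with a log2 fold change of 0.05 (SE 2.63, adjusted p = 0.995). The sign of the Hpcal1 difference turned with the library left out, from -5.51 without Cux1 KO replicate 1 to 1.27 without WT replicate 2.

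By edgeR's quasi-likelihood test, 0 of the 5 genes other than Vsnl1 were called in Cux1 KO males at P4, beside 0% of 19601 genes, since no gene passed. At an unadjusted p under 0.05, 2 of the 5 (Hpca and Ncs1) were counted, beside 20.5% of the genes tested. DESeq2 called the same 2, Hpca at 2.65 (adjusted p = 3.01e-08) and Ncs1 at 1.52 (adjusted p = 3.05e-04), beside 12.5% of 18202 genes. A fit of all P4 groups together also called Hpca (3.00, adjusted p = 0.00392) and Ncs1 (1.67, adjusted p = 0.00159), beside 11% of 23658 genes. On counts simulated for this comparison, with a small set of genes changed by a fixed amount, edgeR found few of the changed genes. Most calls of DESeq2 were false there. The share of false calls depends on how many genes change, which is not known for the real libraries, so it cannot be carried over to them. The calls of DESeq2 are taken as weak support at most, and the absence of edgeR calls excludes no change. The median log2 fold change of these 5 members was 1.66 and that of all genes -0.18.

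Libraries and markers differed between Cux1 KO and WT males at P4 beyond these genes. The KO libraries held 19499125 and 40421655 counts and 17049 and 19115 detected genes, against 20844 to 22546 detected genes in WT males. L2/3 neuron genes summed to 1437 and 1963 CPM in the KO and to 818, 860.4 and 1059 CPM in WT, with 10 of 12 genes at a positive fold change and Mef2c the most abundant at 849.7 CPM. Interneuron genes summed to 192 and 362 CPM in the KO and 551, 897 and 715 CPM in WT, with 10 of 13 at a negative fold change, Npy most abundant in the KO and Slc32a1 at 0. Intermediate progenitor genes summed to 71.8 and 116 CPM against 242, 169 and 203 CPM, led by Btg2, with Eomes, Neurog2 and Neurog1 at 0 in the KO. Oligodendrocyte lineage genes, led by Pdgfra, summed to 1239 and 1107 CPM against 2950, 2089 and 2238 CPM, with 7 of 7 at a negative fold change. Endothelial and mural genes, led by Rgs5, summed to 0.201 and 86.5 CPM against 515, 322 and 439 CPM, and ependymal genes to 0.151 and 0.139 CPM against 37.6, 103 and 89.2 CPM, with Foxj1 at 0 in the KO. Cell cycle genes, led by Top2a, summed to 1094 and 460.2 CPM against 1318, 1548 and 1439 CPM. Astrocyte and radial glia genes, led by Slc1a3, summed to 7218 and 4323 CPM against 4101, 5180 and 3577 CPM and overlapped. Microglia genes, led by Csf1r in the KO, summed to 13.5 and 14.2 CPM against 50.3, 42.1 and 57.0 CPM.

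The sums of the other marker lists overlapped between Cux1 KO and WT males at P4. Deep-layer neuron genes, led by Sox5, summed to 302 and 404 CPM in the KO and 316, 325 and 385 CPM in WT. Leptomeningeal fibroblast genes, led by Col1a2, were at 15.0 and 4.29 CPM against 24.4, 10.6 and 32.3 CPM, with Col1a1, Col3a1 and Dcn at 0 in the KO. Erythroid genes, led by Hba-a1 in the KO, were at 0.553 and 413 CPM against 272, 206 and 489.9 CPM. The KO libraries thus lay on both sides of the lowest WT library. Immediate early and dissociation response genes, led by Fos with Fosb at 0 in the KO, summed to 779 and 847 CPM against 1452, 1172 and 727 CPM. Mitochondrially encoded genes, led in the KO by mt-Nd5 with mt-Atp6 at 0, summed to 3606 and 962 CPM against 1810.3, 2848 and 1083 CPM. For the 14 lists 0 genes were called by edgeR, and their part in the results for Vsnl1, Hpca, Ncs1 and Hpcal4 was not tested.

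**Figure D2:**
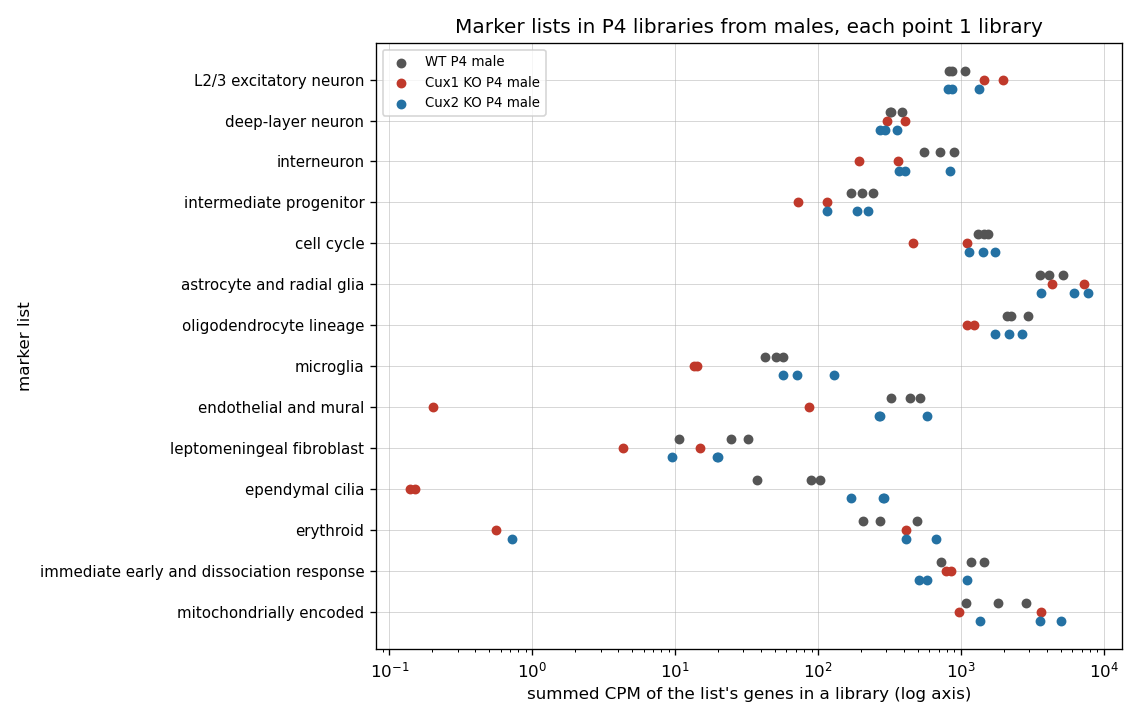
Summed level of each marker list in P4 libraries from males, in CPM on a log axis, with 1 point per library for WT, Cux1 KO and Cux2 KO. The 2 Cux1 KO libraries lie above the WT libraries for L2/3 excitatory neuron genes (1437 and 1963 against 818 to 1059 CPM) and below them for interneuron, intermediate progenitor, cell cycle, oligodendrocyte lineage, microglia, endothelial and mural, and ependymal genes.

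The Cux2 KO at P4 was compared with the same WT libraries in each sex. Vsnl1 was at 37.5, 16.0 and 58.3 CPM in Cux2 KO females against 14.4, 24.3 and 9.24 CPM in WT females, with a log2 fold change of 1.22. In males it was at 34.9, 90.4 and 9.66 CPM, with a log2 fold change of 0.65, and the groups overlapped in both sexes. Without Cux2 KO male replicate 2 the male value turned to -0.36. Hpcal4 in females was at 8.98, 3.21 and 3.21 CPM in the KO and at 2.44, 0.746 and 0.0444 CPM in WT, with a fitted log2 fold change of 2.25 (SE 1.13, adjusted p = 0.704). Every KO library lay above every WT library, as for 8.33% of genes, but 1 WT library held 1 count. Of the 5 genes other than Vsnl1, 0 were called in females by edgeR (0% of 19538 genes) and 0 in males (0% of 19720). Of these 5, 0 and 0 had an unadjusted p under 0.05 (7.39% and 5.76% of all genes). DESeq2 called 0 in both, beside 42 of 17677 and 75 of 18940 genes. Endothelial and mural genes, led by Rgs5, summed to 439, 416 and 503 CPM in Cux2 KO females and 141, 198 and 212 CPM in WT females. Interneuron sums ran from 563 to 915 CPM in Cux2 KO females and from 986 to 1670 CPM in WT females. Those of intermediate progenitor genes ran from 139 to 212 CPM and from 232 to 243 CPM. In males, ependymal sums ran from 171 to 288 CPM in the KO and from 37.6 to 103 CPM in WT. The sums of the other lists overlapped in each sex, and the part of the marker lists in these values was not tested. For the difference of the Cux2 KO effect between the sexes at P4, edgeR called 0 of the 5 other members (0% of 21878 genes). Of these, 0 had an unadjusted p under 0.05 (7.27% of all genes), and DESeq2 called 0, beside 273 of 23999 genes. For the difference of the Cux2 effect between P4 and E19, edgeR called 0 of the 5 other members (0.238% of 21034 genes). Among them 0 had an unadjusted p under 0.05 (7.40% of all genes), and DESeq2 called 0, beside 220 of 25006 genes. Vsnl1 was at 0.15, given as a description.

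Whether the effect of the Cux1 KO differed between P4 and E19 was tested in males. The effect on Hpca was higher at P4 by 2.85 on the log2 scale (SE 0.447, adjusted p = 0.00126 by edgeR's quasi-likelihood test), that on Ncs1 by 1.71 (SE 0.342, adjusted p = 0.00514) and that on Ncald by 1.01 (SE 0.252, adjusted p = 0.0165). For Hpcal4 the difference was 3.68 (SE 1.59, adjusted p = 0.124), and for Hpcal1 it was 0.04 (SE 1.97, adjusted p = 1.00). Hpca and Ncs1 were called in each of the 13 fits that left out 1 library, Ncald lost its call without Cux1 KO P4 replicate 2 (0.74, adjusted p = 0.0597), and Hpcal4 gained one without WT P4 replicate 1 (3.10, adjusted p = 0.0124). Over the 5 genes, 3 were called, beside 20% of 20786 genes. On counts simulated for this test, with a small set of genes changed by a fixed amount, edgeR missed most changed genes and few of its calls were false. The marker and library differences given for Cux1 KO males at P4 enter this test as well, and the KO of each stage carried a different allele. For Vsnl1 the opposite movement is what chose the gene, and the difference of 3.75 was not tested.

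Across all 13 groups the levels of Vsnl1 were ordered from Cux1 KO males at P4 (142 ± 2.58 CPM, n = 2) through Cux2 KO males (45.0 ± 41.3 CPM, n = 3) and Cux2 KO females (37.2 ± 21.2 CPM, n = 3) at P4, with the WT groups of P7 and P4 next, down to Cux1 KO females (3.99 ± 0.560 CPM, n = 4) and males (3.77 ± 0.631 CPM, n = 4) at E19. The highest group did not reach its neighbour within the spread of the libraries, and all further neighbours overlapped by mean and SD. Hpca, Hpcal4 and Ncs1 were likewise highest in Cux1 KO males at P4, clear of the next group by mean and SD. The share of all genes so placed was not counted. Ncald fell into a postnatal and an E19 block that did not overlap by mean and SD, and Hpcal1 into no separated blocks.

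Genes whose levels followed Vsnl1 most closely were sought among 11490 genes with sufficient counts. Over the 13 group means the highest Pearson correlations were those of Neto1 (0.97), Arhgdig (0.96), Gmds (0.96), 1500009L16Rik (0.95) and Gabra3 (0.95). With the mean of each stage removed, over 43 libraries, they were those of Mef2c (0.86), Gap43 (0.85), Dync1i1 (0.85), Chgb (0.84) and Syt1 (0.83). Of the family, Ncald was nearest by the second measure, at 0.82 and rank 17. By this measure Hpca was at 0.73 and rank 81, Hpcal4 at 0.65, Ncs1 at 0.48 and Hpcal1 at -0.18. Over the group means Ncald was at 0.88 and rank 215, Ncs1 at 0.59, Hpcal4 at 0.21, Hpca at -0.12 and Hpcal1 at -0.78. The groups differ in stage, sequencing round, depth and marker content, and these correlations are descriptions across points that share them.

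Other calcium sensors, effectors and partners of the family, 58 genes in 6 lists, were examined in the same tests. In WT neurons between E19 and P4, 11 of 51 tested genes rose and 18 fell, beside 22.6% and 23.7% of all genes. Among calcium buffers and S100 proteins 5 of 7 rose, including S100b (log2 fold change 4.98, adjusted p = 4.93e-09) and S100a1 (3.52, adjusted p = 5.24e-09). Calb1 (2.37), Calb2 (1.88) and Cib1 (1.84) were the others. The potassium channel interacting proteins Kcnip1 and Kcnip3, which belong to the same superfamily, rose by 1.46 each, and Nmt2, a myristoyl transferase, by 1.32. Binding partners and targets mostly fell, 12 of 18, among them Itpr1 (-3.75), Dlg4 (-3.17) and Ap2b1 (-3.16), while 2 rose, Chrna4 (1.09) and Il1rapl1 (2.53). Of calmodulin and its relatives 2 of 8 fell, Cabp1 (-5.12) and Caln1 (-1.88), and of calmodulin-dependent effectors 1 of 10 rose, Camk2d (1.74), and 4 fell, led by Camk2b (-4.14). The median log2 fold change of the 51 genes was -0.48 and that of all genes 0.03. Of the genes tested between P4 and P7, 3 of 53 rose, beside 334 of 20936 genes, namely S100b (2.39), S100a1 (1.35) and Camk2a (2.15). All genes called between P4 and P7 numbered 480, and 0 were called in females alone, in males alone or with replicate number as a block.

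In Cux1 KO males at P4, 0 of 52 genes of these lists were called by edgeR, while DESeq2 called 10 up and 1 down, beside 4.59% and 7.89% of all genes it tested. Calmodulin-dependent effectors had 9 of 10 genes at a positive fold change, with a median of 1.33 beside -0.18 over all genes. Among these were Adcy1, a calmodulin-stimulated adenylate cyclase (edgeR log2 fold change 3.57, adjusted p = 0.0764), Nrgn, which binds calmodulin at the synapse (3.32, adjusted p = 0.0764), and the kinase subunits Camk2b (3.48, adjusted p = 0.104) and Camk2a (3.06, adjusted p = 0.0969). The median was 0.96 for calmodulin and its relatives, 0.38 for calcium buffers and S100 proteins, 0.36 for other calcium sensors of the family, -0.14 for N-myristoylation genes and -0.22 for binding partners. For the difference of the Cux1 KO effect between P4 and E19, 13 of 55 genes were called higher and 3 lower at P4, beside 8.07% and 11.9% of all genes, with a median of 0.43 beside -0.22 over all genes. The 4 called genes of calmodulin and its relatives were Calm3 (1.21), Cabp1 (3.82), Caln1 (3.74) and Necab1 (3.63). Adcy1 (4.43), Nrgn (4.36) and Camk2b (3.76) had the largest differences among effectors, of which 6 of 10 were called higher. Cib2 (2.43) was called among 8 calcium buffers and S100 proteins, Map3k10 (1.75) was among the genes called higher of 18 binding partners, and 0 of 5 other calcium sensors of the family were called. Camk2d (-1.06), Kcnd3 (-1.81) and Nmt1 (-0.91) were lower.

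In Cux1 KO neurons at E19 and in Cux2 KO neurons at both stages, 0 genes of these lists were called by edgeR. At E19 the largest difference was that of Drd2 in Cux1 KO females (log2 fold change -1.30, adjusted p = 0.794), Calb1 in Cux1 KO males (1.59, adjusted p = 0.293), S100b in Cux2 KO females (1.83, adjusted p = 0.618) and Drd2 in Cux2 KO males (-1.77, adjusted p = 0.640). At P4 it was that of Nrgn in Cux2 KO females (1.87, adjusted p = 0.697) and Npr1 in Cux2 KO males (-2.25, adjusted p = 0.865). DESeq2 called 1 gene down in Cux1 KO males at E19, beside 46 of 15855 genes, and 0 in the other 5 comparisons. Between WT females and males edgeR called 0 of 49 genes of these lists at E19, 0 of 52 genes at P4 and, at P7, 0 of 54, and DESeq2 called 0 at each. For the effects by sex, edgeR called 0 of 52 genes for the Cux1 KO, and for the Cux2 KO 0 of 51 genes at E19 and 0 of 55 genes at P4, where DESeq2 called 1 up and 1 down, beside 129 and 144 of 23999 genes. For the Cux2 KO effect by stage edgeR called 0 of 55 genes and DESeq2 1, beside 220 of 25006 genes.

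The members are encoded apart from each other in the genome (GRCm39). Vsnl1 (ENSMUSG00000054459) lies on chromosome 12 from 11375161 to 11488178 on the minus strand, and Hpcal1 (ENSMUSG00000071379) on the same chromosome from 17739796 to 17841964 on the plus strand. Hpca (ENSMUSG00000028785) lies on chromosome 4 from 129005306 to 129015916 on the minus strand, and Hpcal4 (ENSMUSG00000046093) on chromosome 4 from 123076662 to 123088495 on the plus strand. Ncald (ENSMUSG00000051359) lies on chromosome 15 from 37363739 to 37792843 on the minus strand, and Ncs1 (ENSMUSG00000062661) on chromosome 2 from 31135714 to 31188422 on the plus strand. All are protein-coding genes. The exons of Vsnl1 overlap 126 bases of Smc6 on the opposite strand, which is 3.7% of its exon length, those of Hpca overlap 117 bases of Tmem54, and those of Hpcal4 overlap 36 bases of Gm69876 on the opposite strand. The exons of Ncald overlap 347 bases of Gm28221 and 75 bases of Grhl2 on the opposite strand and 315 bases of Gm49397 on the same strand. Whether reads were counted by strand is not given, and how reads from these stretches were assigned is therefore not known. Between 0% and 4.63% of the 60-base stretches of the members' transcripts also occur in another gene.

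The coding sequences are related throughout. Identity of aligned bases ran from 64% between Ncald and Ncs1 to 86% between Hpca and Hpcal1, and was 82.4% between Vsnl1 and Hpcal4. The first 36 bases are shown because they hold the start codon and the codon after it, given in capitals. They begin for Vsnl1 at 11436977 on chromosome 12 (minus strand), Hpca at 129012534 on chromosome 4 (minus strand), Hpcal1 at 17836172 on chromosome 12 (plus strand), Hpcal4 at 123082515 on chromosome 4 (plus strand), Ncald at 37397678 on chromosome 15 (minus strand), Ncs1 at 31136191 on chromosome 2 (plus strand) of GRCm39, and run over 36 coding bases. In all 6 genes the second codon is GGN, the glycine to which myristate is attached, whereas 7.22% of 21634 coding sequences have such a codon.
Vsnl1: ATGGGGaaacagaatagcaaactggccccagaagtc
Hpca: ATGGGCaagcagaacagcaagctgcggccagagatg
Hpcal1: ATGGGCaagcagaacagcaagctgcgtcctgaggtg
Hpcal4: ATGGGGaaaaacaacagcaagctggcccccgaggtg
Ncald: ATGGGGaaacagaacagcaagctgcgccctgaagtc
Ncs1: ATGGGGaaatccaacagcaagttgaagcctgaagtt

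Promoters were read because 3 of the 5 members other than Vsnl1 lay above every WT male library in Cux1 KO males at P4, beside 18.6% of genes. The table of promoters from RefSeq (GRCm38.p6) held 8 entries that matched 5 of the 6 members, and none for Ncald. The 250 bases before each start were searched on both strands for 3 short motifs associated with Cux proteins. The first, ATCGAT, was found in 0.728% of the 32851 promoters of the table. The second, written ATCAAT, was found in 6.72% of these promoters and in none of the members. The last of them was the box CCAAT, which 33.8% of these promoters held. Hpcal4 held ATCGAT 75 bases before its start. A CCAAT box on the plus strand of the gene began 78 bases before the start and shared 2 bases with that match. Of the 2 entries for Vsnl1, the first held CCAAT on the strand of the gene, 239 bases before the start, and the second held it on the other strand. None of these letters were found in the windows of Hpca, Hpcal1 and Ncs1.

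The matches turned with the start that was used. Windows of 250 bases before the canonical transcripts of GENCODE M39 (GRCm39) were read first, and the RefSeq table was read after their matches were known. These transcripts start inside the span given above for each gene. In the windows before them ATCGAT was found in none of the 6 members and in 0.781% of 21770 promoters. There ATCAAT was held by Hpcal4, and by 6.52% of promoters. Both Vsnl1 and Hpcal1 held CCAAT there, as did 36.5% of promoters. Only the box of Vsnl1 on the strand of the gene was thus found from both starts. The RefSeq windows of Vsnl1 (chromosome 12, 11436579 to 11436828, minus strand, GRCm38.p6) and Hpcal4 (chromosome 4, 123183254 to 123183503, plus strand, GRCm38.p6) are shown because they held matches, which are in capitals.
Vsnl1: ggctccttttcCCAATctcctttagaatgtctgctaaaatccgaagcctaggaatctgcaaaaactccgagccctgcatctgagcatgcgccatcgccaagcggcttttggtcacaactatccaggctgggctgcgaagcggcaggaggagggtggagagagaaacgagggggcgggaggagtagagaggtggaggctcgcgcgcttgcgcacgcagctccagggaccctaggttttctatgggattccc
Hpcal4: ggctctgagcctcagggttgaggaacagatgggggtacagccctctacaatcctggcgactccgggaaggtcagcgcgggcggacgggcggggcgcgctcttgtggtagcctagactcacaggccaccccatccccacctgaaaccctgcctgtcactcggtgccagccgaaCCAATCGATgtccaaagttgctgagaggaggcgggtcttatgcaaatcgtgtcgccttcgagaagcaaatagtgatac
A match is a description of letters in the window and not of a site.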

How the data were processed

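The deposited table holds raw counts per gene and library, without normalization. The authors used HISAT2 and GRCm39 for their single-end reads of 60 nucleotides, removed duplicated reads past a threshold, and ran featureCounts for primary alignments on Ensembl genes. Analyses used R 4.3.3, edgeR 4.0.16 and DESeq2 1.42.0, with sequences handled in Python 3.11.15 and Biopython 1.88. The versions of HISAT2, featureCounts and the authors' DESeq2 were not given in the labels or the methods. In edgeR, libraries of the groups compared were fitted with TMM scaling and filterByExpr by the quasi-likelihood test, and p-values were adjusted by Benjamini-Hochberg over all tested genes. Stage comparisons in WT carried sex as a covariate, and differences between effects were interaction terms. CPM on the log2 scale used a prior count of 2. Tests were tested on simulated data for 4 of the comparisons. In each, a small set of genes was changed by a fixed amount, so the shares of false calls need not hold where more genes change. The sign of nearly all changes was found. At E19 (Cux1 KO males) and between E19 and P4 in WT, both tools called most changed genes and most calls were right. In Cux1 KO males at P4 edgeR called few changed genes and most calls of DESeq2 were false. For the Cux1 KO effect by stage edgeR missed most changed genes with few false calls, and DESeq2 called more of both. Alternatives were DESeq2, its size factors in edgeR, no filter, no fold change threshold, all groups of a stage, each sex alone, a replicate block and leaving out each library.

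Genes named are the 6 members, Cux1 and Cux2, genes of the 6 pathway lists that were called or else had the largest change in a list (at most 4 per list), the 5 genes nearest to Vsnl1 by each measure, and genes whose exons overlap a member. Of the marker lists, the most abundant gene of a group, genes at 0 and 1 called gene are named. The pathway lists were other calcium sensors of the family, calmodulin and its relatives, calcium buffers and S100 proteins, N-myristoylation, binding partners, and calmodulin-dependent effectors. The 14 marker lists covered L2/3 and deep-layer neurons, interneurons, intermediate progenitors, cell cycle, glia, microglia, vessels, fibroblasts, ependyma, blood, dissociation response and mitochondria. The members and lists were chosen with earlier results of these data known. Of the 56980 genes, 56236 matched the annotation by identifier. Promoters of the members were first read before the canonical transcripts of GENCODE M39, and the RefSeq table was added after those matches were seen.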

Additional observations from a re-analysis of the deposited data

Results flagged for a closer look

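Single libraries stood far from the rest of their group in 3 of 36 cases examined, 1 for each of the 6 genes in each of the 6 groups of 4 libraries. Chance does so in about 1 in 20 cases, and the cases share libraries. These were Hpca in 1 Cux2 KO female library of E19 (62.1 CPM, next 42.9), Ncald in 1 Cux1 KO female library of E19 (59.9 CPM, next 67.6) and Ncald in 1 WT female library of E19 (108.2 CPM, next 74.8).

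The effect of the Cux1 KO in males differed between P4 and E19 by the test of the difference for Hpca (2.85 on the log2 scale), Ncs1 (1.71) and Ncald (1.01). For Vsnl1 the log2 fold change was 2.30 at P4 and -1.45 at E19 in males, with every library of the KO on one side of WT at each stage. This difference was not tested, and it is the pattern by which the gene was chosen.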

How the results depend on the processing

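Counts of called members kept their value under most alternatives. In Cux1 KO males at E19 the count went from 1 to 0 with all groups in the fit, and ran from 0 to 1 over libraries left out. Without the filter on low counts, 1 member was called in Cux2 KO females at E19. It was Vsnl1, chosen on contrasts with the same WT libraries, so that this call supports nothing. In Cux1 KO males at P4, DESeq2 called 2 and the fit of all groups 2, where edgeR called 0. Between E19 and P4 in WT, females alone gave 5 and the replicate block 2, against 3. These counts hold Vsnl1, except in the block, and without it they were 4, 2 and 2. For the Cux1 KO effect by stage, leaving out a library gave 2 to 4, against 3. The cause was not tested.

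Some differences that were not called took the other sign. The replicate block, which pairs libraries by number, gave -2.59 for Hpcal1 in Cux1 KO males at P4, -2.33 for its effect by stage and -0.64 for Hpca between P7 and P4. Residuals of libraries with the same number had a mean correlation of -0.0521 to 0.191. In 0 of 8 comparisons with at least 3 numbers did all pairs exceed 0.1. Both pairs of WT females and males at P7 did so, at 0.157 and 0.225. What libraries of the same number share is not given, and these correlations cannot exclude a shared origin. Without the filter the effect by stage for Hpcal1 was -0.00, and in females alone Ncs1 between E19 and P4 was -0.01. Leaving out libraries gave -5.51 to 1.27 for Hpcal1 at P4, -5.43 to 1.18 for its effect by stage, -0.10 to 0.10 for Ncs1 between E19 and P4, -0.05 to 0.61 for Vsnl1 in Cux2 KO males at E19, -0.36 to 1.31 at P4 and -0.24 to 0.49 for the Cux2 effect by stage. The cause was not tested. Over all members and comparisons 1533 of 1632 alternative estimates kept their direction, and 0 of the 99 others belonged to a called difference. Where leaving out a library left 1 in a group, it was assumed to vary like the other libraries. Scaling by DESeq2's size factors moved the median of all genes by at most 0.03. Single libraries held 0 to 4 counts of Hpcal1 and Hpcal4 at P4, among them the library of most counts. The part of depth in these low values was not tested.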
